A study of Mus musculus with 16 samples.

Results

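The serine and folate one-carbon enzymes examined in mouse bone marrow-derived macrophages were 9 genes, each taken by its symbol from the deposited gene table. They were Phgdh, Psat1 and Psph of serine synthesis, the serine hydroxymethyltransferases Shmt1 and Shmt2, the folate enzymes Mthfd1, Mthfd1l and Mthfd2, and the thymidylate synthase gene Tyms. All 9 were found among the 22287 genes of the table, once each, and all 9 were among the 12514 genes that passed edgeR's filter on low counts. No member was lost to the filter, so the counts of members given here are out of 9.

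This pathway moves single carbon units from serine onto tetrahydrofolate, the reduced form of the vitamin folate. PHGDH, PSAT1 and PSPH turn a glycolytic intermediate into serine in sequence. SHMT1 in the cytosol and SHMT2 in mitochondria split serine into glycine and a folate-bound carbon. In mitochondria that carbon is oxidised by MTHFD2 and released as formate by MTHFD1L. In the cytosol MTHFD1 takes up formate again and feeds purine synthesis, and thymidylate synthase uses the same pool to make a building block of DNA. In macrophages the pathway is known for supplying glycine, nucleotides and methyl groups during inflammatory activation.

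RNA-seq was done on macrophages grown from the bone marrow of C57BL/6J mice aged 8 weeks. Marrow cells were cultured for 7 days without a change of medium. GM cells received GM-CSF at 20 ng/ml and M cells received M-CSF at 50 ng/ml, on tissue culture dishes treated for adherence (TC) or on untreated dishes (noTC). They then received vehicle, termed steady state, or 100 ng/ml LPS, a bacterial endotoxin that activates Toll-like receptor 4, for 3 h. Each of the 8 combinations had 2 libraries. Groups at steady state are named by growth factor and dish (GM-TC and so on), and LPS at the end of a name stands for challenged cells. No genetic change was made in any group. GM and M cultures differed in cytokine, cytokine dose and seeding density, which cannot be told apart. The study calls the 2 libraries of a group biological replicates without saying whether they came from different mice, so the p-values measure the spread between these libraries.

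Total counts per library lay between 17527802 and 31458363, and 3 counts, taken as the floor of detection, corresponded to 0.0954 to 0.171 CPM (counts scaled to a library of fixed size), which covers counting error only. The lowest count of a member in any library was 47, for Shmt1, and the highest was 2367, for Shmt2. The 7 macrophage markers were detected in every group and summed to between 37750 and 46561 CPM in GM libraries and between 19984 and 28103 CPM in M libraries. Markers of heart muscle summed to 25.6 to 72.0 CPM in the 4 steady state TC libraries and to 0.505 to 2.02 CPM in the other 12. Unless another scale is named, CPM here are scaled with edgeR's TMM factors, fold changes come from edgeR's quasi-likelihood test over all 16 libraries, and a call is an adjusted p (Benjamini-Hochberg over the 12514 genes) under 0.05.

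Some of the members share sequence or position with other genes. Tyms had a value that was not whole in all 16 libraries, so part of its reads was divided among several places by the authors' counting and its values are uncertain. In the GENCODE annotation exons of Shmt2 overlap Ndufa4l2, those of Shmt1 overlap Smcr8, those of Psph overlap Cct6a and those of Mthfd1 overlap Gm47525, each on the opposite strand. The counting was not stated to use strand, so reads of these partners cannot be told apart.

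Promoter windows were read from RefSeq for Phgdh, Psat1 and Mthfd2, since these genes rose upon LPS challenge in every culture condition with TMM scaling. Each window runs from 250 bases before the start site to 50 bases after it, 5′ to 3′ on the gene's strand, in GRCm38.p6. Capitals mark CCAAT, the core of the CCAAT box bound by the factor NF-Y, or its reverse complement ATTGG.
Phgdh promoter, chr3:98339920-98340219, minus strand: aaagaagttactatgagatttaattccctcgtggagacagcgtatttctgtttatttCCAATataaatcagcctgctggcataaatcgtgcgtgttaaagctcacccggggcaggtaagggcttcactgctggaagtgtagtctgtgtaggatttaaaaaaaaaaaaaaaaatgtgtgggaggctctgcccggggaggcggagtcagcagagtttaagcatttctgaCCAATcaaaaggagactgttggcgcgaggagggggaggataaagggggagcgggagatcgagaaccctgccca
Psat1 promoter, chr19:15925010-15925309, minus strand: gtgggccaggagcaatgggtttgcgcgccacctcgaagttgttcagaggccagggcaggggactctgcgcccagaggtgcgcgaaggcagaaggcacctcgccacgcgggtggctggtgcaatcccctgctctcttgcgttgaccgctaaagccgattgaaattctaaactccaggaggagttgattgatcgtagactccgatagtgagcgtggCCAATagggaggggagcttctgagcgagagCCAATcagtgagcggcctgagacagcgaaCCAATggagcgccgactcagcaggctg
Mthfd2 promoter, chr6:83317555-83317854, minus strand: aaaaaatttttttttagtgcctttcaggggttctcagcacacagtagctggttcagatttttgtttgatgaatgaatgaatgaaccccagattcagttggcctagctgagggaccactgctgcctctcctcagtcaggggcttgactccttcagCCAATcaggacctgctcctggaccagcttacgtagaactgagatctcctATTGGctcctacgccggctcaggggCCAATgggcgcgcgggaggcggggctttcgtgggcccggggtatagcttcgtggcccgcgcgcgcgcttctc

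The window of Phgdh held 2 matches to CCAAT, while those of Psat1 and Mthfd2 held 3 each. Across the members 6 of 9 had a match on either strand, namely Phgdh, Psat1, Psph, Shmt1, Mthfd1 and Mthfd2, beside 37.4% of all 32851 windows. Psat1 has a second window, which held none. The E box CACGTG occurred in Tyms alone, beside 7.15% of all windows. Neither TGATGNAA, the composite site of ATF4 and C/EBP, nor TTTNGCGC, an E2F site, occurred in a window of a member, and they occurred in 3.97% and 1.38% of all windows. A match is a stretch of letters and was not tested as a binding site. Mthfd1 and Shmt1, which fell or did not pass the test upon LPS challenge, held CCAAT as well.

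Levels of the 9 genes differed widely when compared per kilobase of exon. In M-noTC cells Phgdh was at 18.7 CPM per kilobase, Shmt2 at 17.5, Mthfd2 at 13.8 and Psat1 at 10.2. Mthfd1 was at 7.56, Mthfd1l at 3.64, Tyms at 2.86, Psph at 2.08 and Shmt1 at 1.16 CPM per kilobase. The mitochondrial hydroxymethyltransferase Shmt2 thus exceeded its cytosolic counterpart Shmt1 in level, and in each of the 16 libraries their ratio per kilobase was between 7.85 and 28.8.

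**Figure D1:**
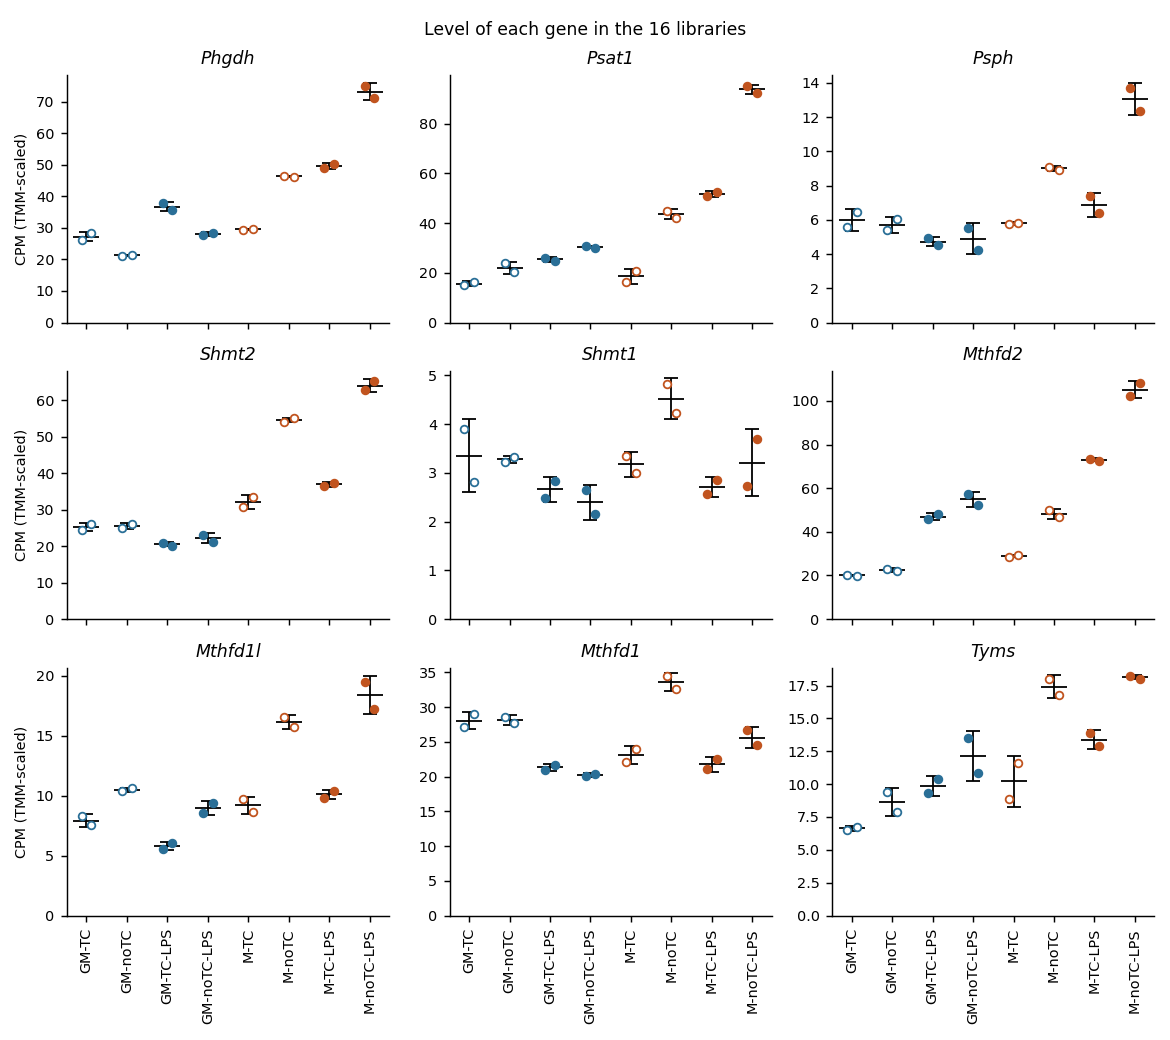
Level of each gene in the 16 libraries, in CPM with TMM scaling on the vertical axis and the 8 groups on the horizontal axis. Circles are libraries (blue for GM-CSF, orange for M-CSF, open for vehicle, filled for LPS), and black bars give the mean ± SD of 2 libraries. Phgdh, Psat1, Psph, Shmt2, Mthfd2 and Mthfd1l were highest in both M-noTC-LPS libraries, while Mthfd1 and Shmt1 were highest in both M-noTC libraries at steady state.

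Over the 8 group means the members followed different orders. M-noTC-LPS had the highest mean of 7 members, with Phgdh at 73.2 ± 2.69 CPM (SD, n = 2), Psat1 at 93.8 ± 1.93 CPM and Mthfd2 at 105 ± 4.03 CPM. For Tyms the libraries of M-noTC-LPS and M-noTC overlapped, at 18.1 ± 0.151 CPM and 17.4 ± 0.855 CPM. Shmt1 and Mthfd1 had their highest mean in M-noTC instead, at 4.52 ± 0.418 CPM and 33.6 ± 1.34 CPM. As a description over 8 group means on the log2 scale, which share libraries and scaling, Pearson's r was 0.961 between Psph and Shmt2, 0.950 between Shmt1 and Mthfd1, 0.926 between Psat1 and Mthfd2, and -0.311 between Mthfd1 and Mthfd2.

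The change upon LPS challenge was compared first. Mthfd2, which encodes the mitochondrial dehydrogenase and cyclohydrolase, rose in all 4 culture conditions. It was at 20.2 and 19.8 CPM in the GM-TC libraries against 45.8 and 48.1 CPM in GM-TC-LPS, and at 23.0 and 22.0 CPM in GM-noTC against 57.3 and 52.5 CPM in GM-noTC-LPS. In M cells it was at 28.6 and 29.4 CPM in M-TC against 73.5 and 72.5 CPM in M-TC-LPS, and at 49.9 and 46.7 CPM in M-noTC against 102 and 108 CPM in M-noTC-LPS. Within each condition both LPS libraries lay above both vehicle libraries. Libraries with and without LPS did not overlap, in either direction, for 80.9%, 84.2%, 85.8% and 85.7% of all tested genes. Values given in a row for the 4 conditions, here and in what follows, run over GM cells before M cells and over TC before noTC dishes. The log2 fold changes of Mthfd2 were 1.23 ± 0.0716 (SE), 1.29, 1.33 and 1.12, with edgeR's adjusted p at 8.5e-13, 1.6e-13, 2.9e-14 and 1.4e-13. In a bulk sample fewer cells of a type and less RNA per cell cannot be told apart.

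The LPS comparisons depend on the scaling more than the others do. The TMM factors ran from 1.11 to 1.39 in vehicle libraries and from 0.778 to 0.842 in LPS libraries. When library size replaced TMM, the median over all tested genes moved from values near 0 to -0.53, -0.54, -0.83 and -0.73 on the log2 scale over the 4 conditions. The share of lower genes among all genes called moved from between 49.1% and 51.1% to between 78.5% and 81.0%. With library size alone Mthfd2 still rose in each condition, by 0.75, 0.78, 0.50 and 0.40 on the log2 scale. DESeq2's size factors reversed no LPS result of a member.

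**Figure D2:**
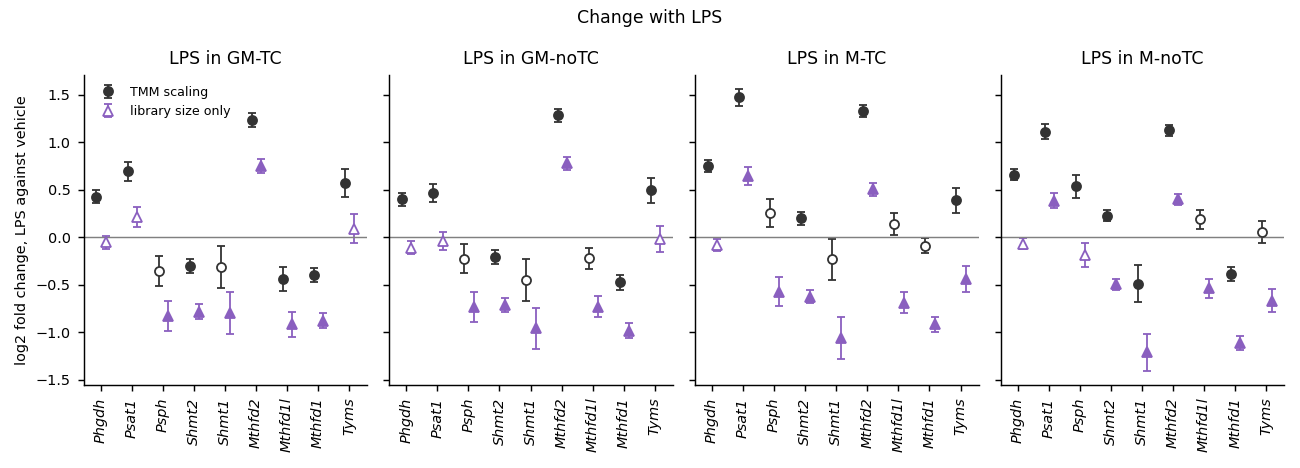
Log2 fold change of each gene upon LPS challenge in the 4 culture conditions, with TMM scaling (black circles) and with library size only (purple triangles). Bars are SE, and filled symbols have an adjusted p under 0.05. Mthfd2 lies above 0 and Mthfd1 below 0 under both scalings in every condition, while Phgdh lies above 0 with TMM and just below 0 with library size only.

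With TMM scaling 4 members rose and 3 fell in GM-TC cells upon LPS challenge, where 32.8% and 34.2% of all tested genes were called higher and lower. In GM-noTC cells 4 rose and 2 fell, beside 33.6% and 34.0% of all genes. In M-TC cells 5 rose and 0 fell, beside 37.6% and 36.4%, and in M-noTC cells 5 rose and 2 fell, beside 36.4% and 35.9%. For the count of 0 in M-TC, edgeR also gave no lower member at an unadjusted p under 0.05. Scaled by library size alone, 1 member rose and 5 fell in GM-TC and in GM-noTC, 2 rose and 6 fell in M-TC, and 2 rose and 5 fell in M-noTC. On that scale 17.2%, 16.4%, 16.3% and 16.1% of all genes were called higher and 62.7%, 63.8%, 69.1% and 68.5% lower, so the members' falls were near the share of all genes. The members' median log2 fold changes were -0.30, -0.21, 0.26 and 0.23, beside -0.05, -0.03, -0.01 and -0.01 over all tested genes.

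Of the serine synthesis genes, Psat1, the aminotransferase of the second step, had the larger change in M cells. It was at 14.996 and 16.3 CPM in GM-TC, 26.1 and 24.7 CPM in GM-TC-LPS, 23.8 and 20.3 CPM in GM-noTC and 30.7 and 30.2 CPM in GM-noTC-LPS. In M cells it was at 16.4 and 20.8 CPM in M-TC, 50.9 and 52.7 CPM in M-TC-LPS, 44.9 and 42.1 CPM in M-noTC and 95.2 and 92.5 CPM in M-noTC-LPS. The vehicle and LPS libraries did not overlap in any condition. Psat1 rose by 0.69 and 0.47 on the log2 scale in GM-TC and GM-noTC and by 1.47 and 1.11 in M-TC and M-noTC with TMM scaling. With library size alone it still rose in both M conditions, by 0.65 and 0.39, and was not called in the GM conditions, at 0.21 and -0.039. The test of the difference put the GM response 0.78 below the M response on TC (edgeR's adjusted p = 8e-05) and 0.64 below it on noTC (edgeR's adjusted p = 0.00021).

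Phgdh, the dehydrogenase of the first step, was at 26.3 and 28.3 CPM in GM-TC, 37.7 and 35.7 CPM in GM-TC-LPS, 21.2 and 21.4 CPM in GM-noTC and 27.6 and 28.5 CPM in GM-noTC-LPS. It was at 29.4 and 29.6 CPM in M-TC, 49.0 and 50.2 CPM in M-TC-LPS, 46.5 and 46.2 CPM in M-noTC and 75.1 and 71.3 CPM in M-noTC-LPS. LPS libraries lay above vehicle libraries in each condition on this scale. The log2 fold changes were 0.43, 0.40, 0.75 and 0.66 with TMM scaling, where all 4 passed, and -0.054, -0.11, -0.079 and -0.068 with library size alone, where none passed. Phgdh thus rose relative to the median gene, not as a share of the library. Its response was smaller in GM than in M cells by 0.32 on TC (edgeR's adjusted p = 0.0077) and by 0.26 on noTC (edgeR's adjusted p = 0.029), the former turning to 0.025 with library size alone.

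Psph, the phosphatase of the last step, did not follow Psat1. It was at 9.10 and 8.90 CPM in M-noTC against 13.7 and 12.4 CPM in M-noTC-LPS, a rise of 0.54 with TMM (edgeR's adjusted p = 0.00054) that turned to -0.19 with library size alone. In the other 3 conditions it did not pass the test, with log2 fold changes of -0.35 in GM-TC, -0.23 in GM-noTC and 0.26 in M-TC. On the library size scale it fell in these 3 conditions, by 0.83, 0.73 and 0.57. Without GM-TC replicate 1 the value in GM-TC was -0.45 and passed, with an adjusted p of 0.036.

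The hydroxymethyltransferases moved little. Shmt2 was at 24.4 and 26.1 CPM in GM-TC against 20.9 and 20.1 CPM in GM-TC-LPS, and at 54.1 and 55.0 CPM in M-noTC against 62.8 and 65.2 CPM in M-noTC-LPS. It was lower upon LPS in both GM comparisons and higher in both M comparisons with TMM scaling, with no overlap between vehicle and LPS libraries. Over the 4 conditions the log2 fold changes were -0.30, -0.21, 0.20 and 0.23, all called, and with library size alone the M values turned to -0.63 and -0.50. The GM response of Shmt2 lay below the M response by 0.50 on TC (edgeR's adjusted p = 0.00045) and by 0.44 on noTC (edgeR's adjusted p = 0.001). Shmt1 was the lowest of the 9 in counts and was called in M-noTC only, where it fell by 0.49 (edgeR's adjusted p = 0.03). Scaled by library size alone it fell in all 4 conditions, by 0.80 to 1.21.

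Among the other folate enzymes Mthfd1 took the opposite course to Mthfd2. It was at 27.2 and 29.0 CPM in GM-TC against 21.0 and 21.7 CPM in GM-TC-LPS, at 28.6 and 27.7 CPM in GM-noTC against 20.04 and 20.4 CPM in GM-noTC-LPS, and at 34.5 and 32.6 CPM in M-noTC against 26.7 and 24.5 CPM in M-noTC-LPS. In these 3 conditions both LPS libraries lay below both vehicle libraries, and Mthfd1 fell by 0.40, 0.48 and 0.39 on the log2 scale. In M-TC the libraries overlapped, at 22.1 and 23.98 CPM against 21.0 and 22.5 CPM, and the log2 fold change was -0.09 with a 95% interval from -0.25 to 0.08. Scaled by library size alone Mthfd1 fell in all 4 conditions, by 0.88, 0.98, 0.91 and 1.12. Mthfd1l, whose product releases formate in mitochondria, fell by 0.44 in GM-TC and was not called elsewhere, at -0.22 in GM-noTC and at 0.14 and 0.19 in M cells on TC and noTC. Scaled by library size alone it fell in all 4 conditions, by 0.92, 0.73, 0.69 and 0.54. Tyms rose by 0.57, 0.49 and 0.39 in GM-TC, GM-noTC and M-TC and was not called in M-noTC, at 0.06, but with library size alone it was at 0.090 in GM-TC, without a call, at -0.015 in GM-noTC and at -0.44 and -0.67 in M cells on TC and noTC.

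Some of these smaller LPS calls rested on 1 library. The call of Shmt2 was lost in GM-noTC without GM-noTC replicate 2 (edgeR's adjusted p = 0.16) or GM-noTC-LPS replicate 2 (0.17), and in M-TC without M-TC replicate 1 (0.14) or M-TC-LPS replicate 2 (0.061). That of Tyms was lost in GM-noTC without GM-noTC-LPS replicate 1 (0.082), and in M-TC without M-TC replicate 1 (0.2) or M-TC-LPS replicate 1 (0.091). That of Shmt1 in M-noTC was lost without M-noTC replicate 1 (0.16) or M-noTC-LPS replicate 1 (0.29). Without M-noTC-LPS replicate 2 Mthfd1l passed in M-noTC, at 0.27 and 0.042.

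A ratio of 2 genes within a library needs no scaling factor. Mthfd2 to Mthfd1, in counts per kilobase, was between 0.870 and 1.84 in the 8 vehicle libraries and between 2.78 and 5.62 in the 8 LPS libraries, without overlap. The mitochondrial gene was therefore near or below the level of the cytosolic one in GM cells at steady state, from 0.870 to 1.03, and above it in the other 12 libraries. Psat1 to Psph was between 2.58 and 5.02 in vehicle and between 5.40 and 8.38 in LPS libraries, again without overlap. Shmt2 to Shmt1 did overlap, at 7.85 to 16.2 against 8.87 to 28.8, as did Mthfd1l to Mthfd1, at 0.260 to 0.484 against 0.266 to 0.732. These ratios show unequal change of a pair and not which gene moved.

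**Figure D3:**
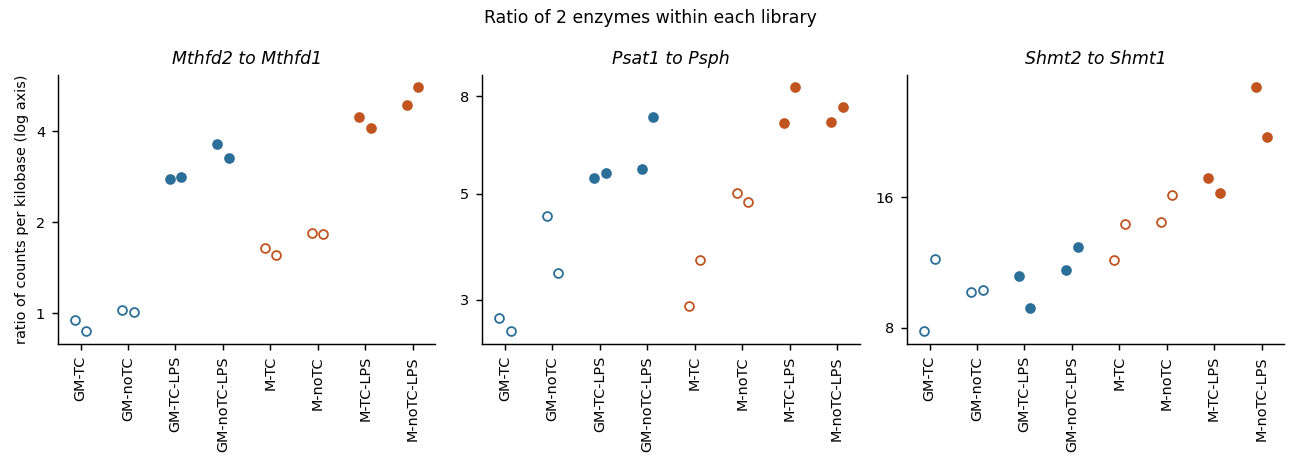
Ratio of counts per kilobase for 3 pairs of genes within each of the 16 libraries, on a log axis, by group on the horizontal axis. Each circle is a library (blue for GM-CSF, orange for M-CSF, open for vehicle, filled for LPS). LPS libraries lie above all vehicle libraries for Mthfd2 to Mthfd1 and for Psat1 to Psph, and the ranges of Shmt2 to Shmt1 overlap.

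The responses to LPS were then compared between dishes. With edgeR 0 of 9 members differed between noTC and TC in GM cells, where 0.783% of all genes did, and 0 of 9 in M cells, where 10.6% did. At an unadjusted p under 0.05, 0 members passed in GM and 3 in M by edgeR, namely Mthfd1, Mthfd2 and Psat1, each with a lower response on noTC. DESeq2 on all 16 libraries also called 0, and at an unadjusted p it passed 0 in GM and 2 in M. By library size the share of lower genes among all genes called in M went from 70.6% to 38.9%. The largest difference was that of Psat1 in M cells, -0.36 with a 95% interval from -0.61 to -0.11 and an adjusted p of 0.058, and without M-TC replicate 2 it was -0.54 with an adjusted p of 0.011. For Mthfd2 the difference was 0.05 in GM cells, with an interval from -0.15 to 0.26, and -0.21 in M cells, with an interval from -0.39 to -0.02.

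Between growth factors the LPS responses differed more. On TC dishes 6 of 9 members had a lower response in GM than in M cells, and on noTC dishes 5 did, beside 23.3% and 19.3% of all genes. Psat1, Psph, Shmt2, Phgdh and Mthfd1l were called on both dishes, and Mthfd1 on TC alone. Psph differed by -0.61 and -0.76 on TC and noTC, and Mthfd1l by -0.58 and -0.41. Mthfd2 differed by -0.10 on TC, with a 95% interval from -0.30 to 0.11, and by 0.16 on noTC, with an interval from -0.03 to 0.35. With library size alone the median difference of all genes was 0.30 on TC and 0.19 on noTC, and the differences of Phgdh and Mthfd1 on TC turned to 0.025 and 0.037, while that of Mthfd2 became 0.25 on TC and 0.38 on noTC and that of Tyms 0.53 and 0.65, all 4 of which passed. Of the lower responses only Psat1 kept its call on TC on that scale, at -0.43, and Psat1 and Psph on noTC, at -0.42 and -0.54, and the differences of Shmt2, Mthfd1l and, on TC, Psph no longer passed. The share of lower genes among all genes called went from 56.8% to 21.1% on TC and from 53.4% to 26.8% on noTC.

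Several of these calls depended on 1 library as well. That of Psph on TC was lost without GM-TC replicate 2 (edgeR's adjusted p = 0.12), GM-TC-LPS replicate 2 (0.092), M-TC replicate 1 (0.071), M-TC replicate 2 (0.059) or M-TC-LPS replicate 1 (0.12). That of Mthfd1 on TC was lost without GM-TC replicate 2 (0.099), GM-TC-LPS replicate 1 (0.087), M-TC replicate 1 (0.15) or M-TC-LPS replicate 2 (0.11). Those of Phgdh and Mthfd1l on noTC were both lost without GM-noTC replicate 1 (0.065 and 0.063), GM-noTC replicate 2 (0.095 and 0.099), GM-noTC-LPS replicate 1 (0.091 and 0.13), M-noTC replicate 1 (0.069 and 0.051), M-noTC replicate 2 (0.088 and 0.11) or M-noTC-LPS replicate 1 (0.1 and 0.14). The differences of Psat1 and Shmt2 were called in each fit without 1 library. Tyms on noTC, at 0.43, passed without GM-noTC replicate 1 (0.037) or GM-noTC-LPS replicate 2 (0.021).

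The dish was compared next. In M cells at steady state 9 of 9 members were higher on noTC than on TC dishes, where 16.1% of all tested genes were called higher and 11.1% lower. The members' median log2 fold change was 0.73, beside 0.01 over all genes. Psat1 had the largest, 1.22 ± 0.0881 (SE), as its libraries went from 16.4 and 20.8 CPM in M-TC to 44.9 and 42.1 CPM in M-noTC. No scaling turned the direction of any member in any dish comparison. Shmt1 had an adjusted p of 0.049 and lost its call in every fit without 1 of the 4 libraries (0.086 to 0.26), with the replicate block (0.056) and with library size alone.

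All 3 serine synthesis genes took part, with Phgdh at 29.4 and 29.6 CPM in M-TC against 46.5 and 46.2 CPM in M-noTC, a log2 fold change of 0.65 (edgeR's adjusted p = 5.1e-08). Psph rose by 0.63 (edgeR's adjusted p = 0.00093). Shmt2 was at 30.8 and 33.4 CPM against 54.1 and 55.0 CPM, a rise of 0.77 (edgeR's adjusted p = 9.5e-09). No library of one dish overlapped those of the other for any of the 9 genes, beside 66.9% of all genes. Mthfd2 rose by 0.73, Mthfd1 by 0.54 and Tyms by 0.76. Mthfd1l was at 9.69 and 8.68 CPM against 16.5 and 15.8 CPM, a rise of 0.81 (edgeR's adjusted p = 2e-06).

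**Figure D4:**
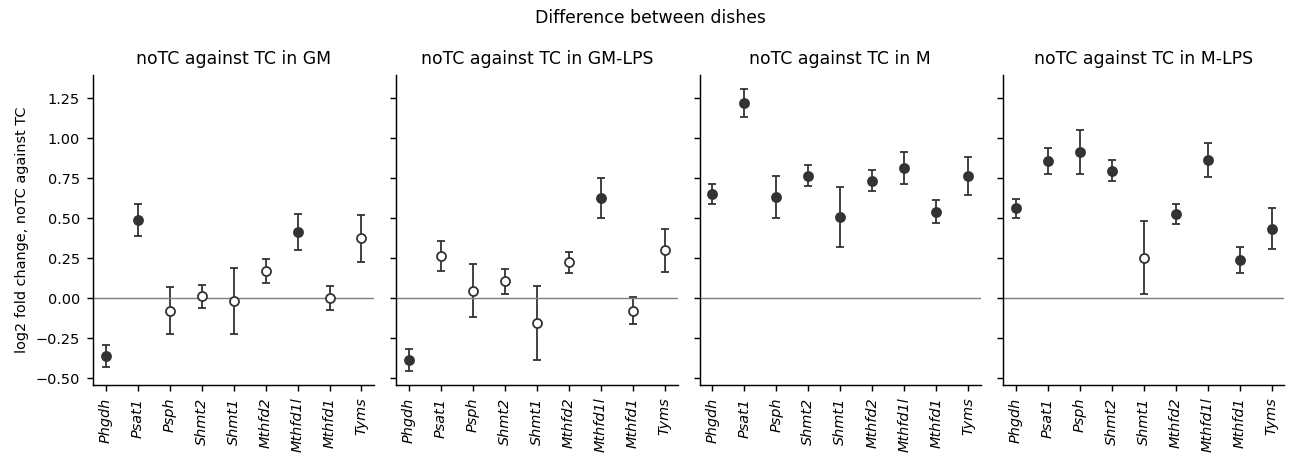
Log2 fold change of each gene on noTC against TC dishes, in GM and M cells at steady state and upon LPS challenge, with TMM scaling. Bars are SE, and filled circles have an adjusted p under 0.05. In M cells all 9 genes at steady state and 8 with LPS lie above 0 with a call, whereas in GM cells Phgdh lies below 0 with a call in both states.

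Upon LPS challenge 8 of 9 members were higher in M-noTC-LPS than in M-TC-LPS cells, beside 10.4% of all genes called higher. The share of lower genes among all genes called was 55.5% there and 29.5% with library size alone. Psph had the largest log2 fold change, 0.91 (edgeR's adjusted p = 4e-05), followed by Mthfd1l at 0.86, Psat1 at 0.86 and Shmt2 at 0.80. Phgdh was higher by 0.56, Mthfd2 by 0.53, Tyms by 0.43 and Mthfd1 by 0.24. Shmt1 was not called, at 0.25 with overlapping libraries. The call of Mthfd1 was lost without M-TC-LPS replicate 1 (edgeR's adjusted p = 0.23), M-TC-LPS replicate 2 (0.05) or M-noTC-LPS replicate 1 (0.27). That of Tyms was lost without any 1 of the 4 libraries, at 0.051 without M-TC-LPS replicate 1, 0.1 without M-TC-LPS replicate 2, 0.081 without M-noTC-LPS replicate 1 and 0.058 without M-noTC-LPS replicate 2.

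GM cells gave another picture. At steady state Psat1 and Mthfd1l were higher on noTC, by 0.49 and 0.41, and Phgdh was lower by 0.36, beside 4.69% and 2.85% of all genes called higher and lower. Phgdh was at 26.3 and 28.3 CPM in GM-TC against 21.2 and 21.4 CPM in GM-noTC, without overlap. The other 6 members were not called, and Mthfd1, Shmt1, Shmt2 and Psph had overlapping libraries. The call of Mthfd1l was lost without GM-TC replicate 2 (edgeR's adjusted p = 0.2), GM-noTC replicate 1 (0.12) or GM-noTC replicate 2 (0.16). That of Psat1 was lost without GM-noTC replicate 1, where it was 0.37 with an adjusted p of 0.11 and only Phgdh kept its call. In a fit to the 4 libraries of the comparison alone 0 of the 9 were called, by edgeR and by DESeq2, beside 2.79% of 11801 genes and 1.8% of 15430 genes.

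With LPS Mthfd1l was higher on noTC in GM cells by 0.63 (edgeR's adjusted p = 0.0051) and Phgdh lower by 0.39 (edgeR's adjusted p = 0.0014), beside 2.08% and 0.727% of all genes. Mthfd1l was at 5.58 and 6.04 CPM in GM-TC-LPS against 8.58 and 9.40 CPM in GM-noTC-LPS, and Phgdh at 37.7 and 35.7 CPM against 27.6 and 28.5 CPM. Both noTC libraries lay above both TC libraries for Mthfd1l and below them for Phgdh. Mthfd1l was not called without GM-TC-LPS replicate 1 (0.096) or GM-noTC-LPS replicate 2 (0.078). The study itself named Mthfd1l from these same samples as higher on noTC dishes with LPS in both kinds of cell, so its direction here is not independent evidence.

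The dish difference itself was tested between growth factors. At steady state 6 of 9 members had a lower difference in GM than in M cells, beside 6.40% of all genes, and with LPS 5 did, beside 3.71%. By library size 6 were called in each, and the share of lower genes among all genes called with LPS went from 35.0% to 67.1%. Phgdh stood first in both, by -1.01 ± 0.0925 (SE) at steady state (edgeR's adjusted p = 1.8e-07) and by -0.95 with LPS (edgeR's adjusted p = 3.4e-07). Shmt2 differed by -0.75 and -0.69, Psat1 by -0.73 and -0.60, Psph by -0.71 and -0.87, and Mthfd2 by -0.56 and -0.30. Mthfd1 was called at steady state alone, at -0.54. Mthfd1l, the gene with the like direction in all 4 dish comparisons and a call in each, was not called, at -0.40 with a 95% interval from -0.72 to -0.09 and an adjusted p of 0.098 at steady state and at -0.23 with LPS.

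At steady state the difference of Psph was not called without GM-TC replicate 2 (edgeR's adjusted p = 0.11), GM-noTC replicate 1 (0.097), M-TC replicate 1 (0.071), M-TC replicate 2 (0.063), M-noTC replicate 1 (0.067) or M-noTC replicate 2 (0.055). With LPS it was not called without GM-TC-LPS replicate 1 (0.054) or GM-noTC-LPS replicate 2 (0.07). That of Mthfd2 with LPS was not called without GM-TC-LPS replicate 1 (0.052), GM-TC-LPS replicate 2 (0.13), GM-noTC-LPS replicate 2 (0.15), M-TC-LPS replicate 1 (0.066), M-TC-LPS replicate 2 (0.072) or M-noTC-LPS replicate 2 (0.11). Those of Phgdh, Shmt2 and Psat1 were called in every such fit.

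Other measures moved with the dish. Heart muscle markers summed to 40.6 to 72.0 CPM in M-TC and 0.505 to 0.511 CPM in M-noTC, with 8 of 12 at 0 in M-noTC, and to 25.6 to 51.5 CPM in GM-TC and 0.938 to 1.07 CPM in GM-noTC, with 7 of 12 at 0. With LPS they were between 0.982 and 2.02 CPM on both dishes. Macrophage markers summed to 24700 to 25202 CPM in M-TC and 19984 to 21171 CPM in M-noTC, and with LPS to 27315 to 28103 CPM and 21443 to 22795 CPM. In GM cells at steady state, on TC and then noTC dishes, neutrophil markers summed to 12.7 to 16.7 CPM and 20.2 to 24.01 CPM, and fibroblast markers to 4.63 to 4.70 CPM and 1.92 to 2.40 CPM. In the same order mast cell and basophil markers, nearly all from the gene Kit, summed to 28.7 to 32.9 CPM and 18.8 to 19.8 CPM. Subtracting from the steady state noTC libraries the share of reads of other libraries estimated in them, 0.675% in GM and 0.600% in M, removed 0.501% to 1.56% of a member's reads in GM-noTC and 0.231% to 0.453% in M-noTC. Replication genes moved with the members in M cells, as given with the other lists, and the part of these lists in the members' difference was not tested.

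The growth factors were compared last. On TC dishes at steady state Mthfd1 was higher in GM than in M cells by 0.28, and Tyms, Mthfd2, Shmt2 and Psat1 were lower by 0.62, 0.54, 0.34 and 0.25, beside 32.6% and 28.9% of all genes called higher and lower. On noTC dishes 9 of 9 members were lower in GM cells, beside 30.7% of all genes called lower and 31.4% higher. On TC with LPS 7 were lower, beside 32.9% and 33.9%, and on noTC with LPS 8 were lower, beside 32.6% and 33.5%. Each library also entered an LPS and a dish comparison, so the 3 kinds of comparison share samples.

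On noTC dishes with LPS Psat1 had the largest fold change of the 9 genes. It was at 30.7 and 30.2 CPM in GM-noTC-LPS against 95.2 and 92.5 CPM in M-noTC-LPS, a log2 fold change of -1.62 (edgeR's adjusted p = 1.6e-13). Shmt2 was at 23.1 and 21.1 CPM against 62.8 and 65.2 CPM, Psph at 5.54 and 4.24 CPM against 13.7 and 12.4 CPM, and Phgdh at 27.6 and 28.5 CPM against 75.1 and 71.3 CPM. All M libraries lay above all GM libraries for these genes. The log2 fold changes were -1.53 for Shmt2, -1.42 for Psph, -1.38 for Phgdh and -1.03 for Mthfd1l. Those of Mthfd2, Tyms and Mthfd1 were -0.94, -0.58 and -0.34, and Shmt1 was not called, at -0.42.

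On noTC dishes at steady state the log2 fold changes were -1.12 for Phgdh, -1.10 for Mthfd2, -1.10 for Shmt2, -1.01 for Tyms and -0.98 for Psat1. On TC dishes at steady state Phgdh, by contrast, was at 26.3 and 28.3 CPM in GM against 29.4 and 29.6 CPM in M, with a log2 fold change of -0.11 and a 95% interval from -0.25 to 0.03. That difference on TC and the one on noTC are apart by the dish term given above. With library size alone the median of all genes between GM and M moved to -0.29 on both dishes at steady state, the share of lower genes among those called went from 47.0% to 72.1% on TC and from 49.4% to 72.5% on noTC, and Mthfd1 on TC turned to -0.029. On that scale Phgdh and Mthfd1l were called lower in GM on TC, at -0.43 and -0.53. Markers of other myeloid cells were higher in GM cells. Over the 8 groups neutrophil markers summed to 12.7 to 44.7 CPM in GM and 0.337 to 2.05 CPM in M libraries, with Mpo, Elane and Ly6g at 0 in every M group. Mast cell and basophil markers summed to 18.8 to 32.9 CPM in GM and 3.25 to 8.22 CPM in M. Nearly all of that sum was Kit, a receptor gene that progenitor cells also express, at 29.8 CPM in GM-TC and 5.59 CPM in M-TC. Fcer1a, Mcpt8 and Ms4a2 were at most 0.333 CPM in every library. Cpa3 and Prss34, the rest of that list, reached 1.72 and 0.696 CPM in GM-TC-LPS. In M libraries they were at most 0.0492 CPM (Cpa3, M-TC-LPS) and 0.0374 CPM (Prss34, M-TC). Dendritic cell markers summed to 14.3 to 74.2 CPM in GM and 0.809 to 4.09 CPM in M. In GM groups the largest part of that sum was Ccr7, at 9.41 CPM in GM-TC and 61.5 CPM in GM-noTC-LPS. Ccr7, Zbtb46 and Cd209a were called higher in GM in each comparison, whereas Xcr1 was called on noTC at steady state alone. The sum of the macrophage markers was also higher in GM, as given above, and the direction of each marker is not given here. The part of these marker lists in the members' difference was not tested.

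**Figure D5:**
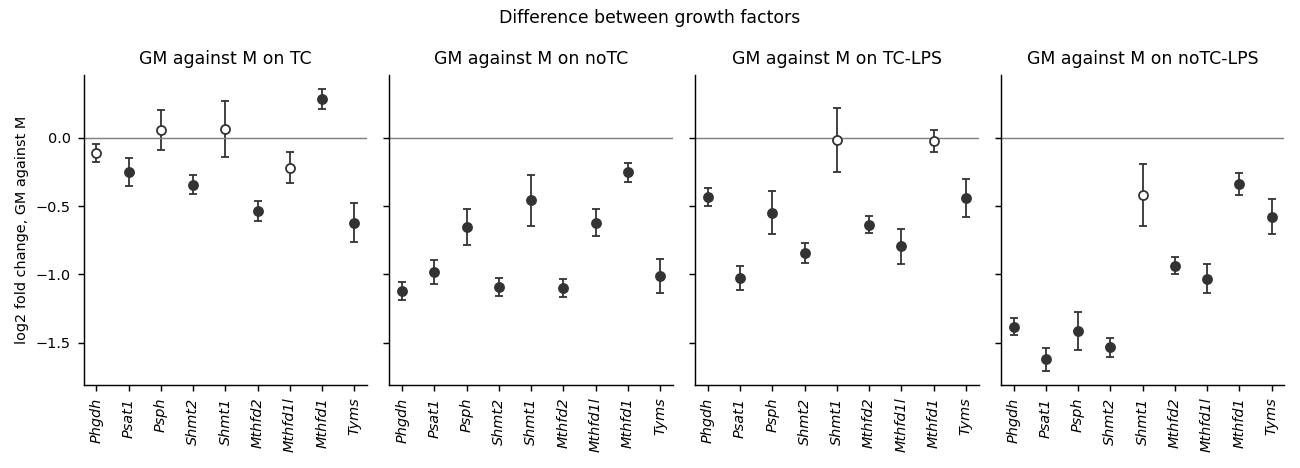
Log2 fold change of each gene in GM against M cells, on TC and noTC dishes at steady state and upon LPS challenge, with TMM scaling. Bars are SE, and filled circles have an adjusted p under 0.05. All 9 genes lie below 0 on noTC dishes, with Shmt1 not called with LPS, and on TC dishes at steady state Mthfd1 lies above 0.

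For calls near the threshold, leaving out libraries mattered here too. Psat1 on TC at steady state was not called without GM-TC replicate 1 (edgeR's adjusted p = 0.16) or M-TC replicate 2 (0.59), and Mthfd1 not without M-TC replicate 1 (0.057). Shmt1 on noTC was not called without GM-noTC replicate 1 (0.13), GM-noTC replicate 2 (0.098) or M-noTC replicate 1 (0.17). On TC with LPS Tyms was not called without GM-TC-LPS replicate 1 (0.065) or M-TC-LPS replicate 1 (0.063), and Psph not without the latter (0.062). On noTC with LPS Shmt1 passed without M-noTC-LPS replicate 1, at -0.62 and 0.044.

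Genes around the pathway were then examined by list. Of 9 other folate enzymes tested, 5 rose and 3 fell in GM-TC upon LPS challenge, 4 and 3 in GM-noTC, and 4 and 4 in both M conditions, with medians of 0.31, 0.03, -0.09 and 0.42. Mtrr, which keeps methionine synthase active, fell by 0.75, 0.83, 1.41 and 1.44 over the 4 conditions, and its direction was the same with library size alone.

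In M cells at steady state the list of other folate enzymes did not move as the members did between dishes, with 2 of 9 higher and 2 lower on noTC and a median of 0.01. Mthfs, which recycles a folate form, was lower by 0.52. Of 7 genes of folate uptake and retention 3 were higher, led by the folate receptor genes Folr1 at 1.32 and Folr2 at 0.93. Of 9 transporters of serine and neutral amino acids 5 were higher, led by Slc7a5 at 1.05 and Slc1a5 at 0.51. Of 6 genes of the methionine cycle 5 were higher, with Ahcy at 0.56. Of 4 genes of glycine cleavage 1 was higher, Gcsh at 0.44.

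Lists of nucleotide synthesis and DNA replication genes were also counted in that comparison. Of 13 genes of purine synthesis 12 were higher in M-noTC, with a median of 0.40, led by Adssl1 at 0.82 and Prps1 at 0.75. Of 10 genes of thymidylate and deoxynucleotide supply 9 were higher, with a median of 0.90, led by Ctps at 1.25. Of 20 replication and S phase genes 20 were higher, with a median of 0.97, led by the loading factor Cdc6 at 1.54. Upon LPS challenge the counts were 9 of 13, 8 of 10 and 17 of 20. In GM cells at steady state they were 2, 2 and 4, and with LPS Adssl1, at 0.81, was the single gene of these lists that edgeR called. From these same samples the study named Adssl1 as higher on noTC dishes with LPS in both kinds of cell. It also named Cdc6 and other replication genes as higher in M-noTC cells, so these directions are not independent evidence.

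Upon LPS challenge most replication and deoxynucleotide genes fell with TMM scaling, while the purine list was mixed. Of the 20 replication genes 18, 18, 14 and 17 fell over the 4 conditions and 1, 1, 2 and 1 rose, with medians of -0.75, -0.72, -0.58 and -1.03. Cdc6 fell by 1.92, 1.89, 2.79 and 3.69. Of the deoxynucleotide list 8, 9, 9 and 10 of 10 fell, beside 34.2%, 34.0%, 36.4% and 35.9% of all genes called lower. Of the purine list 7, 8, 5 and 6 of 13 fell while 1 rose in each, with medians of -0.29, -0.28, 0.053 and -0.14, so in M-TC its share of falls was near that of all genes. By library size 19, 20, 18 and 20 replication genes fell and all 13 purine genes did in each condition. Mthfd2 and Psat1 thus rose with TMM scaling in the same libraries in which most replication genes fell.

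A list of ATF4 and amino acid response genes was counted as well. ATF4 is a factor that induces serine synthesis genes in amino acid shortage, and its own gene Atf4 stands on the list. Of 19 tested, 8 rose and 6 fell in GM-TC upon LPS challenge, 10 and 5 in GM-noTC, 11 and 7 in M-TC and 10 and 7 in M-noTC. In GM-TC these counts are near the 32.8% and 34.2% of all genes called higher and lower, and with library size alone they were 4 and 9, 4 and 11, 5 and 13, and 4 and 13. Slc7a11, the cystine transporter gene, rose by 3.75, 3.87, 5.02 and 3.64, but it does not stand for the list, of which other genes fell. The log2 fold changes of Atf4 upon LPS challenge were 0.0027, 0.22, 0.34 and -0.23, with a call in each condition but GM-TC. With library size alone Atf4 fell in all 4 conditions. Between dishes in M cells 7 were higher and 2 lower at steady state, beside 16.1% and 11.1% of all genes. The 2 lower were thus near the share of all genes. With LPS 8 were higher and 5 lower, beside 10.4% and 12.9%. Asns, asparagine synthetase, was higher on noTC by 0.89 at steady state and 1.06 with LPS. In GM cells at steady state the 4 called were all lower on noTC, beside 2.85% of all genes called lower and 4.69% higher. Asns was among these 4, lower by 0.42 (edgeR's adjusted p = 0.036). Asns was lower in GM than in M cells by 3.27 on noTC (edgeR's adjusted p = 1.1e-18) and by 3.65 on noTC with LPS (edgeR's adjusted p = 7.1e-20). It was also lower on TC, by 1.96 at steady state (edgeR's adjusted p = 3e-14), where Phgdh was not called. Atf4, which is part of these counts, was lower on noTC by 0.20 in GM cells at steady state (edgeR's adjusted p = 0.041). It was higher by 0.31 in M cells at steady state and lower by 0.25 in M cells with LPS. All of these are RNA values, and the part of ATF4 in the members' levels was not tested.

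Myc, a gene whose product is known to act on nucleotide and one-carbon genes, did not keep 1 direction. It fell upon LPS challenge by 1.70, 2.38 and 0.81 in GM-TC, GM-noTC and M-noTC and rose by 2.02 in M-TC. On noTC against TC it was higher by 1.76 in M cells at steady state and lower by 1.07 with LPS. Of the 9 members 8 were higher in both states. These are RNA values, and the part of Myc in the members' levels was not tested.

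The genes most like each member were named by the correlation of log2 CPM over the 8 group means among 9202 candidates of at least 5 CPM. For Phgdh they were Msra at 0.989, Gmps at 0.981 and Ppie at 0.975, for Psat1 they were Slc7a1 at 0.985, Nup160 at 0.982 and Basp1 at 0.975, and for Psph they were 9330182L06Rik at 0.985, Iars at 0.969 and Cse1l at 0.967. For Shmt2 they were Alg8 at 0.991, Rbbp7 at 0.988 and Cse1l at 0.987, and for Shmt1 they were Smpd4 at 0.976, Mcm7 at 0.968 and Xpo5 at 0.963. For Mthfd2 they were Serbp1 at 0.990, Sass6 at 0.989 and Trip13 at 0.989. For Mthfd1 they were Kdelr2 at 0.948, Gins2 at 0.946 and Ddias at 0.941, for Mthfd1l Tpi1 at 0.973, Thoc3 at 0.969 and Plp2 at 0.962, and for Tyms Plk4 at 0.982, Banf1 at 0.971 and Nucks1 at 0.964. These values describe 8 points chosen from many genes.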

How the data were processed

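Gene-level values of 16 libraries (8 groups of 2) were taken in the form the authors deposited: RSEM expected counts per gene. The submitters' processing notes also name fastp 0.18.0, Bowtie2 2.2.8, HISAT2 and StringTie 1.3.1, and the genome build is not given in the sources used here. Expected counts were rounded to whole numbers. Between 6.56% and 8.19% of genes had a value that was not whole in a library. Groups came from the sample labels, and depth is given in the report.

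Counts were tested with edgeR 4.0.16 in R 4.3.3 by the quasi-likelihood test after TMM scaling and filterByExpr, in 1 fit over 16 libraries with a mean per group. SE are the log2 fold change divided by the root of F. DESeq2 1.42.0, other scalings, no filter, fits to the compared libraries alone, a replicate block, fold thresholds, a subtraction of reads of other libraries and fits without 1 library were tried. On simulated counts for noTC against TC in M cells, 200 of 200 changed genes and 16 unchanged genes of 12514 were called. The median absolute log2 fold change of these 200 genes was 0.986, which is larger than that of most members. The simulation gave every gene the same dispersion, 0.00226, so spread did not differ between genes or groups in it. How often smaller differences, or genes of larger spread, would be called was not tested. A permutation of 2 against 2 libraries cannot give a two-sided p below 0.333, so none is given. Replicates differed by more than counting noise (chi-square per degree of freedom 12.5 in GM-TC and 1.91 to 5.13 in the other groups).

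The members and gene lists were chosen with earlier results of these data known. Named genes were the members, up to 3 called genes of each list with the largest change per comparison, described in further comparisons where useful, Atf4 and Myc from the lists, and the 3 genes most correlated with each member. Levels per kilobase used the GENCODE vM21 exon length. Promoters came from RefSeq, GRCm38.p6, searched on both strands. Some genes stand on 2 lists (Slc7a11 and Rrm2 among them). Single genes such as Kit, Ccr7 and Xcr1 were named after their values were seen. Values of some single list genes are not reported here.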

Additional observations from a re-analysis of the deposited data

Results flagged for a closer look

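The LPS response differed between GM and M cells, by the test of the difference itself in edgeR's fit, for 6 members on TC dishes. The GM response minus the M response was -0.32 for Phgdh, -0.78 for Psat1, -0.61 for Psph, -0.50 for Shmt2, -0.31 for Mthfd1 and -0.58 for Mthfd1l on the log2 scale. On noTC dishes it was -0.26 for Phgdh, -0.64 for Psat1, -0.76 for Psph, -0.44 for Shmt2 and -0.41 for Mthfd1l. All are in TMM scaling, and with library size alone only Psat1 on both dishes and Psph on noTC stayed past the threshold in this direction.

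The difference between dishes was lower in GM than in M cells at steady state by -1.01 for Phgdh, -0.73 for Psat1, -0.71 for Psph, -0.75 for Shmt2, -0.54 for Mthfd1 and -0.56 for Mthfd2. With LPS it was -0.95 for Phgdh, -0.60 for Psat1, -0.87 for Psph, -0.69 for Shmt2 and -0.30 for Mthfd2. Phgdh was called in opposite directions, lower on noTC in GM cells and higher on noTC in M cells, in both states. The difference of Phgdh was called in every fit without 1 library. With 2 libraries per group, no library could be tested for standing apart from its group.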

How the results depend on the processing

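No dish result of a member turned its direction under any alternative, and no result did when 1 library was left out. Library size in place of TMM turned 18 values: LPS responses of Phgdh (-0.054 and -0.11 in GM cells on TC and noTC, -0.079 and -0.068 in M cells), of Psat1 and Tyms in GM-noTC (-0.039 and -0.015), of Psph, Shmt2, Mthfd1l and Tyms in M-TC (-0.57, -0.63, -0.69 and -0.44) and in M-noTC (-0.19, -0.50, -0.54 and -0.67), Mthfd1 in GM against M on TC (-0.029), and the difference of LPS responses on TC for Phgdh, Mthfd1 and Mthfd2 (0.025, 0.037 and 0.25). TMM takes the typical gene as unchanged and library size the total, which these counts cannot decide between.

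Members called changed by over 1.5 times as follows. With library size alone 8 were called in M-TC upon LPS and 3 for the difference of LPS responses between GM and M on TC. With DESeq2 on the compared libraries these were 3 and 2, with 0 for the dish in GM, 1 for the dish in GM with LPS, 3 for GM against M on TC, and 3 each for the difference of LPS responses on noTC and of the dish with LPS. DESeq2 on 16 libraries also gave 3 for the former. The compared libraries alone gave 0 for the dish in GM by edgeR, and no filter gave 1 for the difference of LPS responses between dishes in M. A fold above 2 with an unadjusted p left 1, 1, 2 and 2 members for LPS (GM before M, TC before noTC), 0, 1, 0 and 0 for the dish in GM, M, GM-LPS and M-LPS, 0, 4, 1 and 5 for GM against M on TC, noTC, TC-LPS and noTC-LPS, 0 and 0 for the LPS responses between GM and M on TC and noTC, and 1 and 0 for the dish at steady state and with LPS. A fold above 1.5 left 2, 1, 3 and 3 for LPS, 0, 1 and 4 for the dish in GM, GM-LPS and M-LPS, 1 and 4 for GM against M on TC and TC-LPS, and 2 and 2 for the LPS responses between GM and M. Of all genes, 1.16% to 36.1% passed the former and 2.58% to 52.2% the latter, depending on the comparison. The member counts of this section are not set beside the share of their own comparison. They show how calls depend on the processing and are not a result about the members.

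Without 1 library the members called ranged from 7 to 8, 5 to 6, 3 to 5 and 6 to 8 for LPS in the same order, from 1 to 3, 8 to 8, 1 to 2 and 6 to 7 for the dish in GM, M, GM-LPS and M-LPS, and from 4 to 5, 8 to 9, 5 to 7 and 8 to 9 for GM against M on TC, noTC, TC-LPS and noTC-LPS. For the LPS response between dishes the range was 0 to 0 in GM and 0 to 1 in M, between GM and M it was 4 to 6 on TC and 3 to 6 on noTC, and for the dish between GM and M it was 5 to 6 at steady state and 3 to 5 with LPS. A lone library was assumed to vary like the other groups.

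The replicate block left 8 of 9 members called for the dish in M, since Shmt1 had an adjusted p of 0.056, and changed no other call of a member. Same-numbered libraries did not deviate together (correlations from -0.0636 to 0.02), so the numbers are not known to pair samples.

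Over all genes the dish in GM gave 944 calls, 329 from its libraries alone and 278 by DESeq2 on them. The dish in GM-LPS gave 351, 557 without the filter and 529 from its libraries alone, and that in M-LPS 2917 and 1753 by DESeq2 on its libraries. The LPS response between dishes in GM gave 98, 227 without the filter, 61 from its libraries and 17 after subtraction. The dish difference between GM and M at steady state gave 1404 and 824 by DESeq2 on its libraries. Shmt1, the member with the lowest counts, had no call that held in every fit without 1 library.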
